A study of Homo sapiens with 14 samples.

Results

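The cytosolic ribosomal protein genes were taken as every gene of the deposited table named RPL or RPS followed by a number, with an optional A or X and nothing else, together with RPLP0, RPLP1, RPLP2, and RPSA. This rule uses names and no measured value. It found 76 of the 19410 genes of the table, 46 for the large and 30 for the small ribosomal subunit. All 76 were among the 13540 genes tested, which had a value of at least 1 TPM, the unit of transcripts scaled to a common total, in at least 2 libraries. FAU, GNB2L1 (the older symbol of RACK1), and paralogs such as RPL39L have other names and are described apart.

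RNA-Seq had been performed on MDA-MB-231, an established triple-negative breast cancer cell line, kept in DMEM with fetal bovine serum and given no treatment. There were 14 libraries, 2 for each of 7 groups, which were the parental cells and 2 lines for each genotype: SAP30-KO1 with SAP30-KO2, SIN3A/3B-DKO1 with SIN3A/3B-DKO2, and MLL1-KO1 with MLL1-KO2. SAP30 is a subunit of the SIN3 chromatin complex, SIN3A and SIN3B are its alternative scaffolds, and MLL1 is a histone H3 lysine 4 methyltransferase. The lines were made with CRISPR/Cas9 from lentiviral vectors with puromycin selection, and several single KO cells were grown and mixed for each line, so that a line may stand for few founder cells. The labels name no vector for the parental cells. All 6 lines were compared with the same 2 parental libraries. A change shared by all 6 is therefore not 6 independent results, and cannot be told apart from a trait of the parental libraries. The labels do not say whether replicates were separate cultures, so that p-values measure only the spread between these libraries.

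From 18415035 to 23162682 reads per library were recovered from the steps of the TPM values. SAP30 RNA averaged 80.8 TPM in parental cells against 3.43 and 3.86 in its KO lines. MLL RNA, which encodes MLL1, averaged 52.8 TPM in parental cells, and 16.6 and 26.7 in its KO lines. It also averaged 27.3 and 33.4 in SAP30-KO1 and SAP30-KO2, where its change passed the test as well (limma adjusted p = 0.00027 and 0.0033). In these SAP30 lines MLL changed by -0.95 and -0.65 on the log2 scale. The median change of the 51 consecutive tested genes around it was -0.89 and -0.85 there. In MLL1-KO1 and MLL1-KO2 MLL changed by -1.64 and -0.97, and the genes around it by -0.96 and -0.41. SIN3B averaged 76.2 TPM in parental cells and 49.6 and 46.6 in the libraries labelled SIN3A/3B-DKO1 and SIN3A/3B-DKO2, whereas SIN3A averaged 44.2, 61.6, and 55.1 TPM. The mesenchymal markers VIM, CD44, CAV1, and AXL ranged from 267 to 8800 TPM over the libraries, while the receptor genes ESR1 and PGR did not exceed 0.191 TPM. The receptor gene ERBB2 had 21.9 to 42.8 TPM and the epithelial gene EPCAM 5.33 to 19.2 TPM, both highest in parental cells.

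These proteins fold around ribosomal RNA in fixed proportions to build the subunits of the cytosolic ribosome, so a proliferating cell needs them in similar amounts. Their mRNAs are short and abundant, and most begin with a C followed by further pyrimidines, the terminal oligopyrimidine (TOP) motif, through which mTOR signaling controls their translation. Their genes are scattered over nearly all chromosomes. Many have given rise to processed pseudogenes, so that a read from such an mRNA can match several places in the genome.

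The first bases of the mRNA show what these genes share in sequence. In the GENCODE release 44 annotation on GRCh37, the canonical transcripts of 58 of the 76 genes (76.3%) began with a run of at least 5 bases that were all C or T and started with C, read on the transcript's strand. Of all 19819 protein-coding genes, 912 (4.6%) began so. Allowing the run to start up to 3 bases away gave 63 of 76 (82.9%) against 2642 of 19819 (13.3%). The windows below hold 15 bases before the annotated start and 15 from it on, for 8 genes that moved in the comparisons, and capitals mark the C or T run where the first base opens one. The windows lie at chrX:153626703-153626732 (plus strand) for RPL10, chrX:118925579-118925608 (minus) for RPL39, chr11:118889039-118889068 (minus) for RPS25, chr11:75110547-75110576 (plus) for RPS3, and chr16:89627075-89627104 (plus) for RPL13. Those without such a run at the annotated base lie at chr17:41150421-41150450 (plus) for RPL27, chr17:27046988-27047017 (plus) for RPL23A, and chr4:39460528-39460557 (minus) for RPL9.
RPL10: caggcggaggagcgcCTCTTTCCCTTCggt
RPL39: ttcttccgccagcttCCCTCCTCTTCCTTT
RPS25: tctgagcagcgcttcCTTTTTgtccgacat
RPS3: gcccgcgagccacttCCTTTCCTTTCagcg
RPL13: ttgcggggccgcttcCTTTCCgctcggctg
RPL27: ccggggtgaaaggttagcggaagtgtcctt
RPL23A: cccgtgggaacgagcattggagaccctttt
RPL9: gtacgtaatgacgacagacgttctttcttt

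The run was 12 bases in RPL10, at least 15 in RPL39, where it reached the end of the window, 6 in RPS25 and RPL13, and 11 in RPS3. These are annotated starts and not starts measured in MDA-MB-231 cells, and an absent run says only that the letters are not at that base. Genes that rose and genes that fell are found on both sides of this division. In SAP30-KO1, for example, RPL10 with a run rose, RPS25 with a run fell, RPL17 without one rose, and RPL27 without one fell.

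In parental cells the ribosomal protein genes spanned from 2.78 to 3575 TPM, with a median of 977 TPM. The highest were RPL8 at 3556 and 3594 TPM, RPL19 at 2911 and 2980, and RPS4X at 2864 and 2962, so that RPS4X and RPL19 did not separate beyond their spread while RPL8 lay above both. The lowest were RPL36A at 2.91 and 2.65 TPM, RPS27 at 5.94 and 4.07, and RPL21 at 13.5 and 13.4. Of the 100 genes with the highest parental TPM, 37 were ribosomal protein genes, and 38 of the 76 exceeded 1000 TPM.

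The low values went in part with sequence shared between genomic copies. For 9 of the 76 genes at least 80% of the 50-base stretches of the transcript were also found elsewhere in the genome, and these had a median of 105 TPM. For 29 genes under 20% were found elsewhere, and their median was 1260 TPM. RPL21, with 133 annotated processed copies and 100% of its stretches found elsewhere, was among the 3 lowest, as was RPS27 with 95.0%. Over the 76 genes Spearman's rho between parental level and that share was -0.46, a description over genes of the same 2 libraries. RPL36A shares its region with the read-through gene RPL36A-HNRNPH2, listed at 131 TPM in the same cells. How the read counter treated reads with several matches is not given in the sources used here, so the order of these levels is uncertain for the genes with many copies, and the part of shared sequence in them was not tested. RPL36A, RPS27, and RPL21 had under 100 reads in at least 1 library, with as few as 8 reads for RPS27, while 66 genes had at least 1000 reads in every library.

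**Figure D1:**
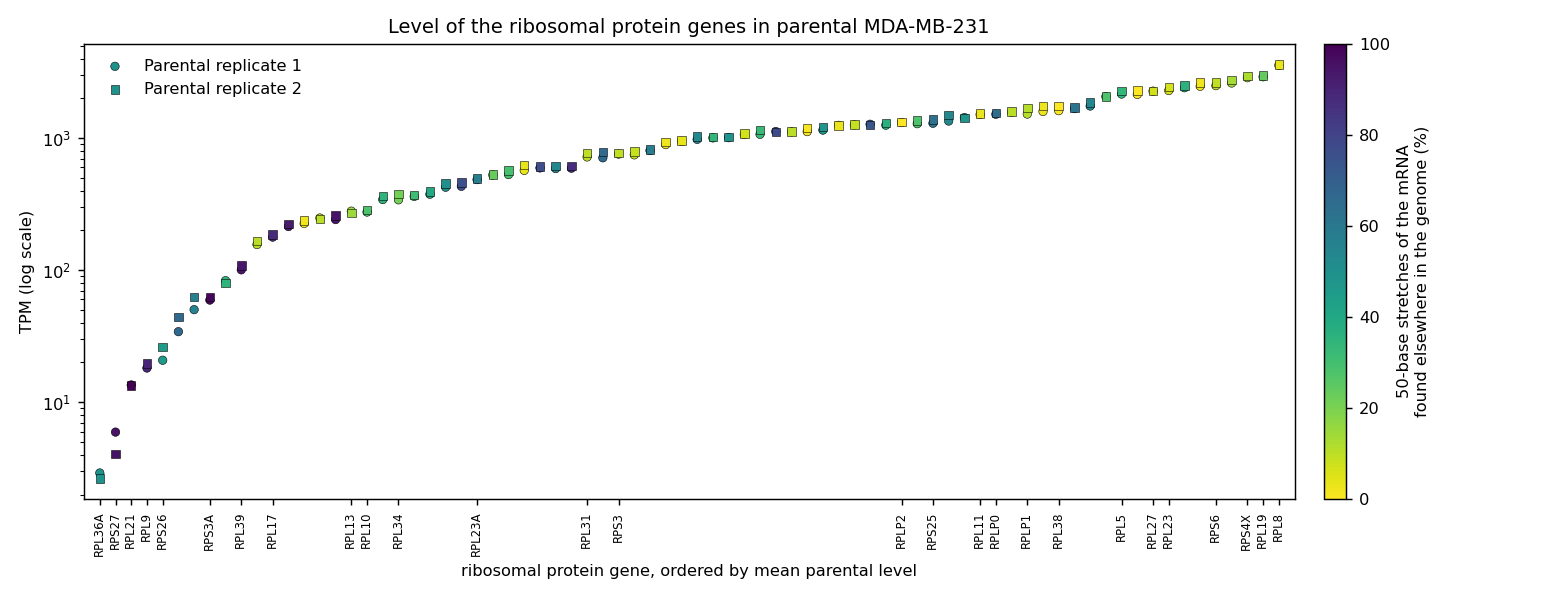
Parental TPM (log scale) of the 76 ribosomal protein genes, ordered by their mean, with 1 symbol for each of the 2 libraries and color for the percentage of 50-base stretches found elsewhere in the genome, and names for the genes described here. The genes run from 2.78 TPM for RPL36A to 3575 TPM for RPL8, and dark symbols gather at the low end.

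Summed over the 76 genes, ribosomal protein mRNA made up 7.82% and 8.13% of all TPM in the parental libraries. The SAP30-KO1 libraries had 7.63% and 8.05% and those of SAP30-KO2 had 7.88% and 8.0%. For SIN3A/3B-DKO1 the values were 7.86% and 7.92%, and SIN3A/3B-DKO2 had 8.13% and 7.81%. All 4 of these groups overlapped the parental values. MLL1-KO1 stood above all other libraries with 9.08% and 9.14%, while MLL1-KO2 lay at 8.02% and 8.11%. The large subunit share of MLL1-KO1 was 5.64% and 5.68% against 4.97% and 5.17% in parental cells, and the small subunit share was 3.44% and 3.46% against 2.85% and 2.96%. Since TPM are scaled to 1 total in each library, these are shares of the mRNA, and in bulk RNA a change in all cells cannot be told apart from a change in some of them.

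**Figure D2:**
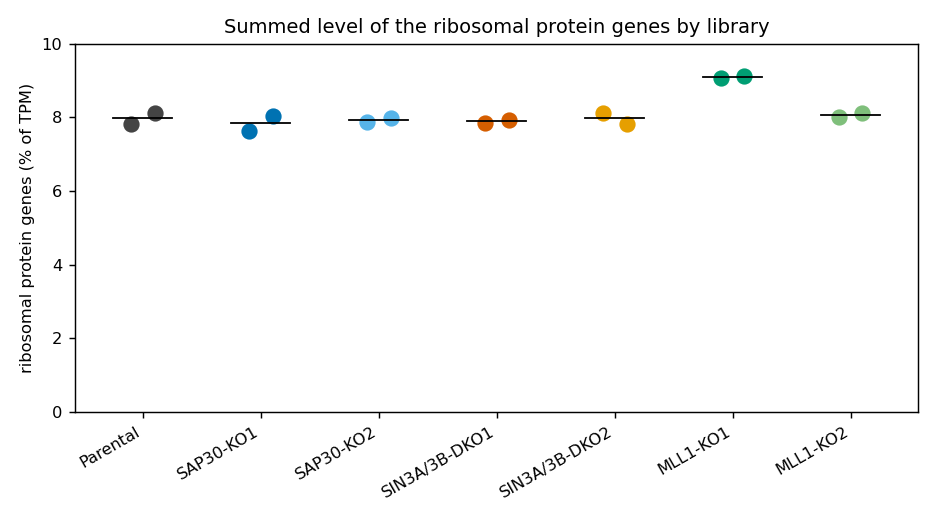
Summed level of the 76 ribosomal protein genes as a percentage of all TPM, with 1 point for each library and a line for the mean of the 2 libraries of a group. Both MLL1-KO1 libraries lie at or above 9.08%, and the other 12 lie between 7.63% and 8.13%.

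Gene by gene, few ribosomal protein genes changed by a large amount, and the direction was mixed in the SAP30 and SIN3A/3B lines. Calls required a change of at least 1.5-fold and a limma p under 0.05 after Benjamini-Hochberg adjustment over all 13540 genes. In SAP30-KO1, 2 of the 76 genes were called lower against 7.86% of all genes tested, and 3 were called higher against 7.8%. In SAP30-KO2, 2 were called lower against 8.12% and 4 higher against 7.44%. The genes called lower were RPS25 and RPS3, and those called higher included RPL10, RPL39, and, in SAP30-KO2, RPL9. In SIN3A/3B-DKO1 none was called lower against 8.66% and 2 were called higher against 7.76%. In SIN3A/3B-DKO2 none was called lower against 7.56% and 2 were called higher against 6.0%, and in both lines these were RPL9 and RPL10. In MLL1-KO1 only RPS25 was called lower against 16.3%, and 5 were called higher against 6.89%, which were RPL10, RPL36A, RPL39, RPL17, and RPL9. In MLL1-KO2 only RPL23A was called lower against 14.9%, and RPL9 and RPL10 were called higher against 10.2%. On the lower side of both SIN3A/3B lines the count at 1.5-fold was also 0 at an unadjusted limma p under 0.05 and with voom on the recovered reads, whereas median ratio scaling called RPL13 lower in SIN3A/3B-DKO2. Under median ratio scaling the calls of RPS25 in MLL1-KO1 and RPL23A in MLL1-KO2 were lost, both at -0.56, and voom also lost that of RPL23A, at -0.57.

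Because the replicates of these abundant genes agreed closely, with a median standard error of 0.042 on the log2 scale, changes under 1.5-fold could also be resolved. Counting every adjusted p under 0.05 whatever the size, SAP30-KO1 had 21 genes lower against 22.9% of all genes and 21 higher against 28.1%. SAP30-KO2 had 19 lower against 24.8% and 26 higher against 26.9%. The median log2 fold change of the 76 was -0.01 for the first line and 0.01 for the second, beside 0.03 and 0.01 for all genes tested. With median ratio scaling the split leaned to the lower side, with 22 lower and 12 higher in SAP30-KO1, and 21 lower and 17 higher in the other line. These splits also rest on single libraries. SAP30-KO1 had 21 lower and 11 higher without Parental replicate 1, 14 and 17 without Parental replicate 2, and 24 and 12 without SAP30-KO1 replicate 2, and SAP30-KO2 had 18 lower and 14 higher without Parental replicate 1. SIN3A/3B-DKO1 had 24 lower against 28.2% and 20 higher against 27.8%, and SIN3A/3B-DKO2 had 17 lower against 23.9% and 27 higher against 25.7%. Their medians were -0.00 and 0.04, beside -0.00 and 0.01 for all genes. In SIN3A/3B-DKO1 voom turned the split to 17 lower and 24 higher, as did leaving out Parental replicate 2, with 13 and 21, or SIN3A/3B-DKO1 replicate 1, with 14 and 18, while 26 were lower and 14 higher without Parental replicate 1. In SIN3A/3B-DKO2 a fit of only that line and the parental cells gave 11 lower and 12 higher.

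In MLL1-KO1 most of these genes rose together. There 58 of the 76 ribosomal protein genes were higher (76.3%) against 21.8% of all genes, and 7 were lower against 38.7%. The median log2 fold change of the 76 was 0.23, with an interquartile range from 0.14 to 0.34, while the median of all genes tested was -0.09. In MLL1-KO2, 31 were higher against 28.0% and 15 lower against 36.2%, with a median of 0.07 beside -0.04 for all genes. The rise in MLL1-KO1 was small for each gene and present in both subunits, with medians of 0.19 over the 46 large subunit genes and 0.27 over the 30 small subunit genes. It was also seen on both sides of the sequence division, with medians of 0.22 for the 58 genes with a C or T run at the annotated start and 0.26 for the 18 without. With quantile normalization, which moved the median of all genes in this line from -0.09 to 0.04, the median of the 76 was 0.16 and 45 were higher, and with median ratio scaling they were 0.33 and 63.

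**Figure D3:**
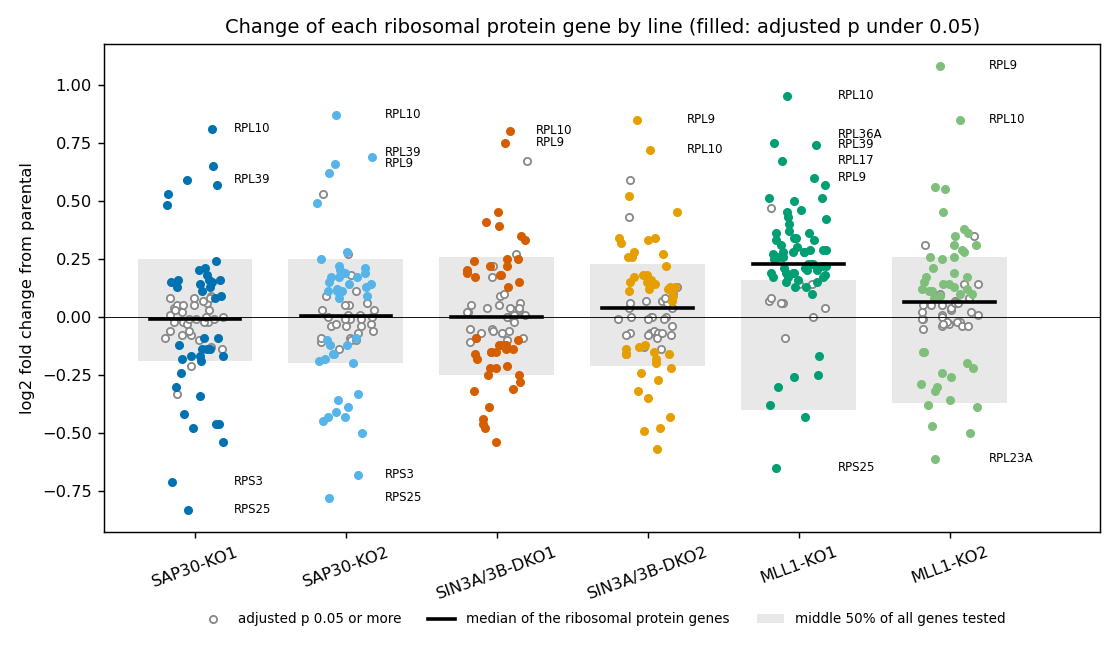
Log2 fold change of each of the 76 ribosomal protein genes from parental cells in the 6 lines, filled where the limma adjusted p was under 0.05, with a black line for their median and a gray box for the middle 50% of all genes tested. Names mark genes described here that were called at 1.5-fold or more, and in MLL1-KO1 the median of 0.23 lies above the gray box while in the other lines it lies inside.

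Both MLL1 lines were compared directly in the same fit. Under an adjusted p of 0.05, 54 of the 76 genes were higher in MLL1-KO1 than in MLL1-KO2 against 15.9% of all genes, and 4 were lower against 26.2%. The 4 were RPS25, RPL9, RPL34, and RPS3A. None of the 76 differed by 1.5-fold, against 10.4% of all genes in either direction, and the median difference was 0.17. Other genes were also higher in MLL1-KO1 in this comparison. The 61 ribosome biogenesis genes tested had a median of 0.23, with 44 higher and 6 lower, and the 40 translation factors and other TOP mRNAs a median of 0.14, with 24 higher and 2 lower. Among the 520 other genes with at least 300 TPM in parental cells, 41.3% were higher and 21.5% lower, with a median of 0.07. Of these, the 173 under 1500 bases had 32.4% higher and 22.5% lower, with a median of 0.03. The SAP30 lines did not separate in this way. At a limma adjusted p under 0.05, none of the 76 was higher (0.236% of all genes) or lower (0.288%) in SAP30-KO1 than in the other SAP30 line, and none differed by 1.5-fold (0.148%). At an unadjusted p under 0.05, 1 was higher and 6 were lower, and voom called none. Between SIN3A/3B-DKO1 and SIN3A/3B-DKO2, 1 was lower (5.8% of all genes), 2 were higher (6.71%), and none passed 1.5-fold (2.23%), whereas quantile normalization gave 5 lower and 1 higher. Leaving out SIN3A/3B-DKO2 replicate 1 gave 2 lower and 8 higher, and without SIN3A/3B-DKO1 replicate 1 none passed in either direction.

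The genes that carry the ribosomal stalk, where translation factors dock, rose in MLL1-KO1, and not in that line alone. RPLP2 stood at 1310 and 1318 TPM in parental cells, 1741 and 1789 in MLL1-KO1, and, for the other MLL1 line, 1352 and 1473. RPLP0 stood at 1514 and 1546 TPM in parental cells and at 2007 and 2029 in MLL1-KO1, and RPLP1 at 1519 and 1683 in parental cells and 2079 and 2029 in MLL1-KO1. In each of the 3 the MLL1-KO1 libraries lay above both parental libraries, with log2 fold changes from 0.36 to 0.43 and limma adjusted p from 7.6e-07 to 0.00024. RPLP2 rose almost as much in SIN3A/3B-DKO1, with 1731 and 1723 TPM, a log2 fold change of 0.39, and adjusted p = 8.6e-06, and by 0.26 in SIN3A/3B-DKO2. RPLP0 passed the test as higher in all 6 lines, by 0.15 to 0.19 outside MLL1-KO1, and RPLP1 rose by 0.28 in MLL1-KO2. In SIN3A/3B-DKO2, however, RPLP1 was lower than in parental cells, at -0.18 (limma adjusted p = 0.021). RPL5 and RPL11 form a particle with 5S rRNA that can bind MDM2. RPL11 rose by 0.29 ± 0.04 (SE) in MLL1-KO1, adjusted p = 8.5e-05, while the change of RPL5, 0.06 ± 0.033, did not pass the test (adjusted p = 0.16). RPS6, the small subunit protein phosphorylated by S6 kinases, had 2495 and 2623 TPM in parental cells and 2900 and 3066 in MLL1-KO1, a log2 fold change of 0.22 ± 0.044 with adjusted p = 0.0012.

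Other measures were set beside the rise in MLL1-KO1. Its libraries had 21888587 and 21408474 reads, inside the range of the others. Ribosomal protein mRNAs are short and abundant, and the 173 other genes that had at least 300 TPM in parental cells and under 1500 bases in the table had a median log2 fold change of 0.07 in MLL1-KO1 and 0.04 in MLL1-KO2. Over all 520 other genes with at least 300 TPM the medians were -0.02 and -0.06. The part of depth, level, and length in the rise was not tested further.

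Many changes of single ribosomal protein genes went with those of the genes beside them on the chromosome, but not all. The largest rise of any of the 76, RPL9 in MLL1-KO2 at 1.08, and the largest fall in SIN3A/3B-DKO1, RPL27 at -0.54, stood in neighborhoods that moved by 0.12 and -0.04. For each gene the median log2 fold change of the 51 consecutive tested genes centered on it, or nearest to it at a chromosome end, was taken as the change of its neighborhood. Over the 76 genes Pearson's r between a gene's change and that of its neighborhood was 0.87 in SAP30-KO1, 0.83 in SAP30-KO2, 0.62 in SIN3A/3B-DKO1, 0.71 in SIN3A/3B-DKO2, 0.76 in MLL1-KO1, and 0.61 in MLL1-KO2. These are descriptions over genes that share libraries and, for close genes, neighbors, and the window includes the gene itself. Where a neighborhood moved by at least 0.3 in SAP30-KO1, all 14 ribosomal protein genes concerned moved the same way, and in MLL1-KO1 13 of 14 did, RPL9 being the exception.

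When the neighborhood was subtracted in every library, no ribosomal protein gene was called at 1.5-fold in the SAP30 or SIN3A/3B lines, in either direction. In MLL1-KO1 RPS26, RPL17, and RPL9 were then called higher and none lower, and in MLL1-KO2 only RPL9 was called. With no fold minimum, 55 of the 76 were then higher than their neighborhoods in MLL1-KO1 and none lower, and the median of the 76 was 0.30. The 55 include RPS25, RPL19, RPL13, and RPL27, which were lower than in parental cells before subtraction. The median over all genes with a position was then 0.00 in every line. In the SAP30 lines subtraction gave 19 lower and 4 higher in SAP30-KO1 and 16 and 7 for its KO2 partner. It gave 17 lower and 11 higher in SIN3A/3B-DKO1, 16 and 12 for its DKO2 partner, and 11 and 22 in MLL1-KO2. The shares of all genes called after subtraction are not given here, so these are counts of the 76 alone. Whether a shared change of a neighborhood comes from gene copy number or from regulation was not tested, and subtraction removes both.

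**Figure D4:**
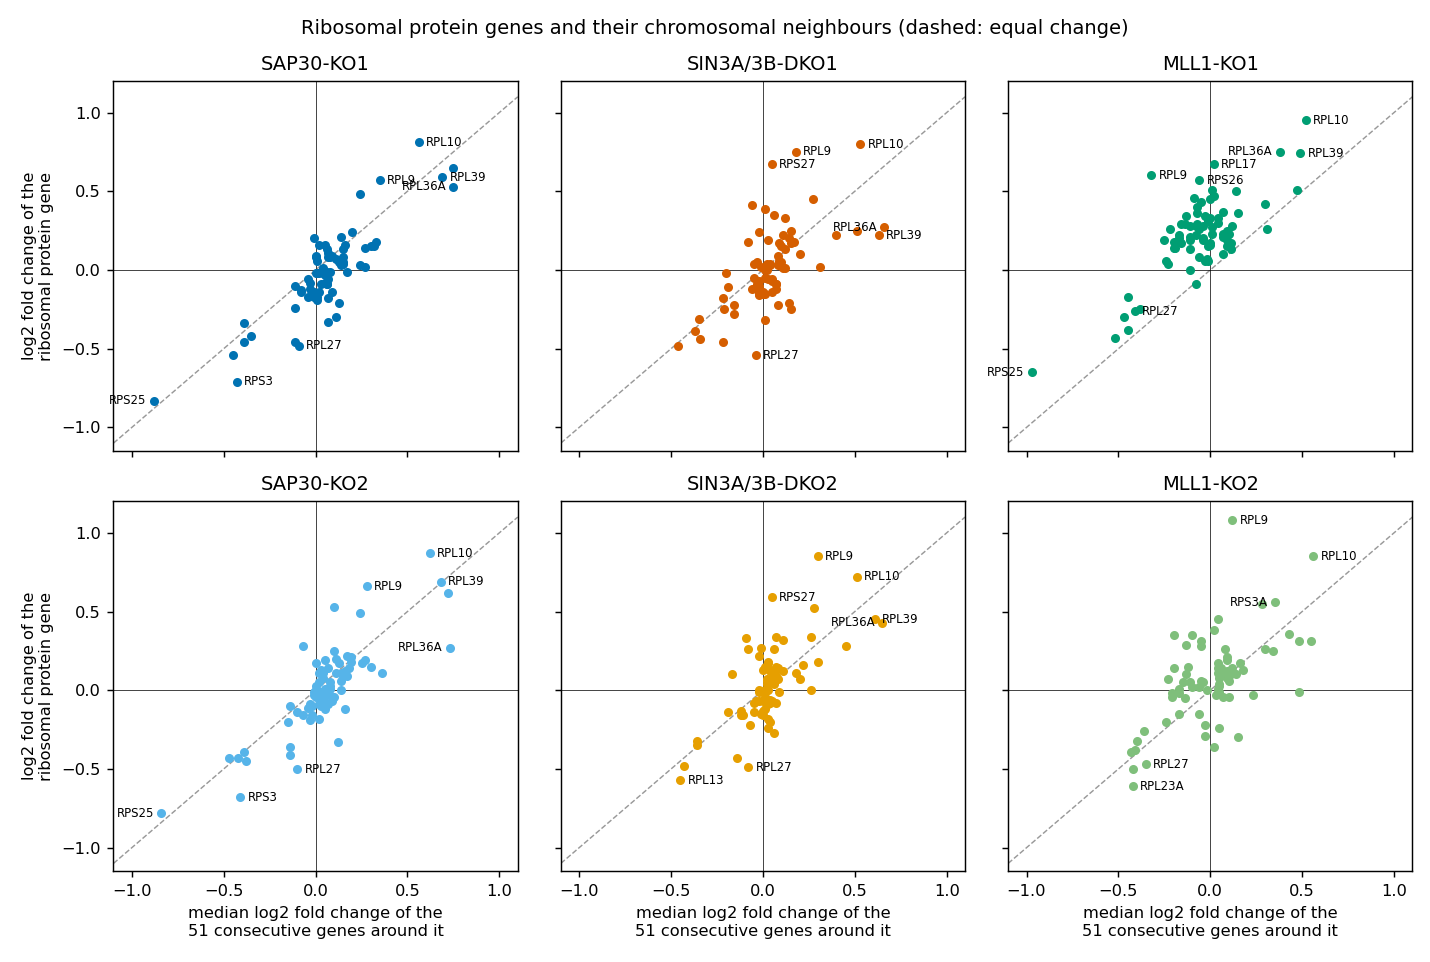
Log2 fold change from parental cells of each ribosomal protein gene against the median of the 51 consecutive genes around it, in 1 panel per line, with a dashed line for equal change. The points follow the dashed line in the SAP30 lines, where r is 0.87 and 0.83, and in MLL1-KO1 nearly all points lie above it, RPL8 and RPS18 being the exceptions.

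On the long arm of the X chromosome, RPL10 rose in all 6 edited lines and RPL39 in 5 of them. RPL10 (chrX:153618315-153637504), whose protein is added late to the large subunit and reaches toward the peptidyl transferase center, stood at 275 and 285 TPM in parental cells. The SAP30 lines had 468 and 515 TPM for KO1 and 504 and 518 for KO2, the SIN3A/3B lines 484 and 493 for DKO1 and 481 and 444 for DKO2, and the MLL1 lines 541 and 544 for KO1 and 494 and 515 for KO2. No edited library overlapped the parental ones. The log2 fold changes were 0.81, 0.87, 0.80, 0.72, 0.95, and 0.85 in that order of lines, each with SE 0.048 and limma adjusted p from 3e-08 to 7.9e-07. The neighborhood of RPL10 moved by 0.56, 0.62, 0.53, 0.51, 0.52, and 0.56 in the same lines. After its subtraction RPL10 was higher by 0.22 to 0.44, with adjusted p from 2.4e-05 to 0.0049.

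RPL39 (chrX:118920467-118925593), a small protein of the peptide exit tunnel, had 101 and 109 TPM in parental cells, from 145 to 177 in the 4 SAP30 libraries, 182 and 169 in MLL1-KO1, and from 115 to 150 in the other 6 libraries. All of these libraries were above the parental ones. Its changes were 0.59 ± 0.089 and 0.69 ± 0.089 in the SAP30 lines and 0.74 ± 0.089 in MLL1-KO1, where it was called (adjusted p = 0.00024, 8.3e-05, and 3.1e-05), and 0.22, 0.45, and 0.36 in SIN3A/3B-DKO1, SIN3A/3B-DKO2, and MLL1-KO2, of which the first did not pass the test (adjusted p = 0.06). Its neighborhood moved by 0.43 to 0.69 over the 6 lines. In SAP30-KO1 the value was under 1.5-fold without Parental replicate 1, at 0.54, without SAP30-KO1 replicate 2, at 0.47, and with median ratio scaling, at 0.56. For RPL39, 93.8% of the 50-base stretches occur elsewhere in the genome. RPL36A, also on Xq, rose by 0.75 ± 0.18 in MLL1-KO1 (adjusted p = 0.0043) on only 54 to 124 reads per library, and the overlapping RPL36A-HNRNPH2 had 131 TPM in parental cells and means from 192 to 222 in the lines. RPS4X (chrX:71475529-71497098), nearer to the centromere, rose less, by 0.15 in both SAP30 lines and by 0.36 and 0.26 in the MLL1 lines, and did not pass the test in the SIN3A/3B lines.

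RPS25 and RPS3 on the long arm of chromosome 11 had the largest falls, in the SAP30 lines. RPS25 (chr11:118886422-118889401), a small subunit protein needed by several viral and cellular internal ribosome entry sites, lies 489 kb beyond the end of MLL. It stood at 1294 and 1383 TPM in parental cells, 723 and 785 in SAP30-KO1, and 755 and 806 in the other SAP30 line. MLL1-KO1 had 862 and 840 TPM. The MLL1-KO2 libraries had 1115 and 1112 TPM, and the 4 SIN3A/3B libraries ranged from 1169 to 1242, all below the parental values. The changes were -0.83 ± 0.047 and -0.78 ± 0.047 in the SAP30 lines, -0.18 and -0.14 in the SIN3A/3B lines, and -0.65 and -0.26 in the MLL1 lines. The neighborhood of RPS25 moved by -0.88, -0.84, -0.22, -0.19, -0.97, and -0.36 in the same order. After subtraction RPS25 was within 0.06 of its neighborhood in the SAP30 and SIN3A/3B lines, where the adjusted p was at least 0.52, and was 0.32 above it in MLL1-KO1, adjusted p = 0.0021.

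RPS3 (chr11:75110559-75133324), which lines the mRNA entry channel and also has a role in DNA repair, fell in the SAP30 lines but not in the MLL1 lines. It stood at 756 and 771 TPM in parental cells and from 459 to 481 in the 4 SAP30 libraries. The SIN3A/3B libraries had 697 to 748 TPM, and MLL1-KO1 had 872 and 859. The change was -0.71 ± 0.034 and -0.68 ± 0.034 in the SAP30 lines, against -0.43 and -0.41 for the neighborhood, so that RPS3 lay 0.28 and 0.27 below it (adjusted p = 0.00067 and 0.00075). In MLL1-KO1 it rose by 0.18 ± 0.034, adjusted p = 0.00092, and its changes of -0.07, -0.08, and 0.03 in the SIN3A/3B lines and MLL1-KO2 did not pass the test.

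On the long arm of chromosome 17, RPL23A, RPL23, RPL19, and RPL27 were lower in every line than in the shared parental libraries. RPL23A (chr17:27047003-27051377), which sits at the exit of the peptide tunnel and contacts the signal recognition particle, had 485 and 495 TPM in parental cells, and its 12 edited libraries lay between 318 and 376. It fell by 0.42 to 0.61, with SE 0.036, while its neighborhood fell by 0.35 to 0.52. RPL23 (chr17:37004113-37010017) fell by 0.35 to 0.50 and its neighborhood by 0.36 to 0.45. RPL19 (chr17:37356536-37361093) fell by 0.17 to 0.39 and its neighborhood by 0.35 to 0.45.

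RPL27 (chr17:41150290-41154976), a large subunit protein farther along the same arm, fell by more than its neighborhood in 5 lines, all but MLL1-KO1. It had 2265 TPM in each parental library, from 1577 to 1662 in the 4 SAP30 libraries, and from 1541 to 1621 in the 4 SIN3A/3B libraries. MLL1-KO1 had 1888 TPM in both libraries and MLL1-KO2 had 1633 and 1641. All edited libraries lay below the parental ones. In the SAP30 and SIN3A/3B lines the changes were -0.48, -0.50, -0.54, and -0.49, each with SE 0.027, and the neighborhood moved by -0.09, -0.10, -0.04, and -0.08. After subtraction RPL27 remained lower by 0.40 to 0.49 there, with adjusted p from 2.9e-06 to 1.9e-05. In MLL1-KO1 and MLL1-KO2 the neighborhood itself moved by -0.41 and -0.35, and RPL27 by -0.26 and -0.47, which put it 0.14 above its neighborhood in MLL1-KO1 (adjusted p = 0.01) and left it lower in MLL1-KO2, at -0.11 (adjusted p = 0.03). RPL38 (chr17:72199721-72206794), near the end of the arm, did not fall with these, with changes between -0.14 and 0.26.

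RPL13 on the long arm of chromosome 16 (chr16:89627085-89630950) had 280 and 271 TPM in parental cells and from 178 to 226 in the edited lines, with no overlap. It changed by -0.54, -0.43, -0.44, and -0.57 in the SAP30 and SIN3A/3B lines and by -0.30 and -0.32 in the MLL1 lines, with SE 0.042 and adjusted p from 1.6e-06 to 0.00012. Its neighborhood changed by -0.34 to -0.47. In SIN3A/3B-DKO2 RPL13 passed 1.5-fold with median ratio scaling or without Parental replicate 2, at -0.59 in both, and without SIN3A/3B-DKO2 replicate 1, at -0.63. None of the 76 genes lies on chromosome 7.

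**Figure D5:**
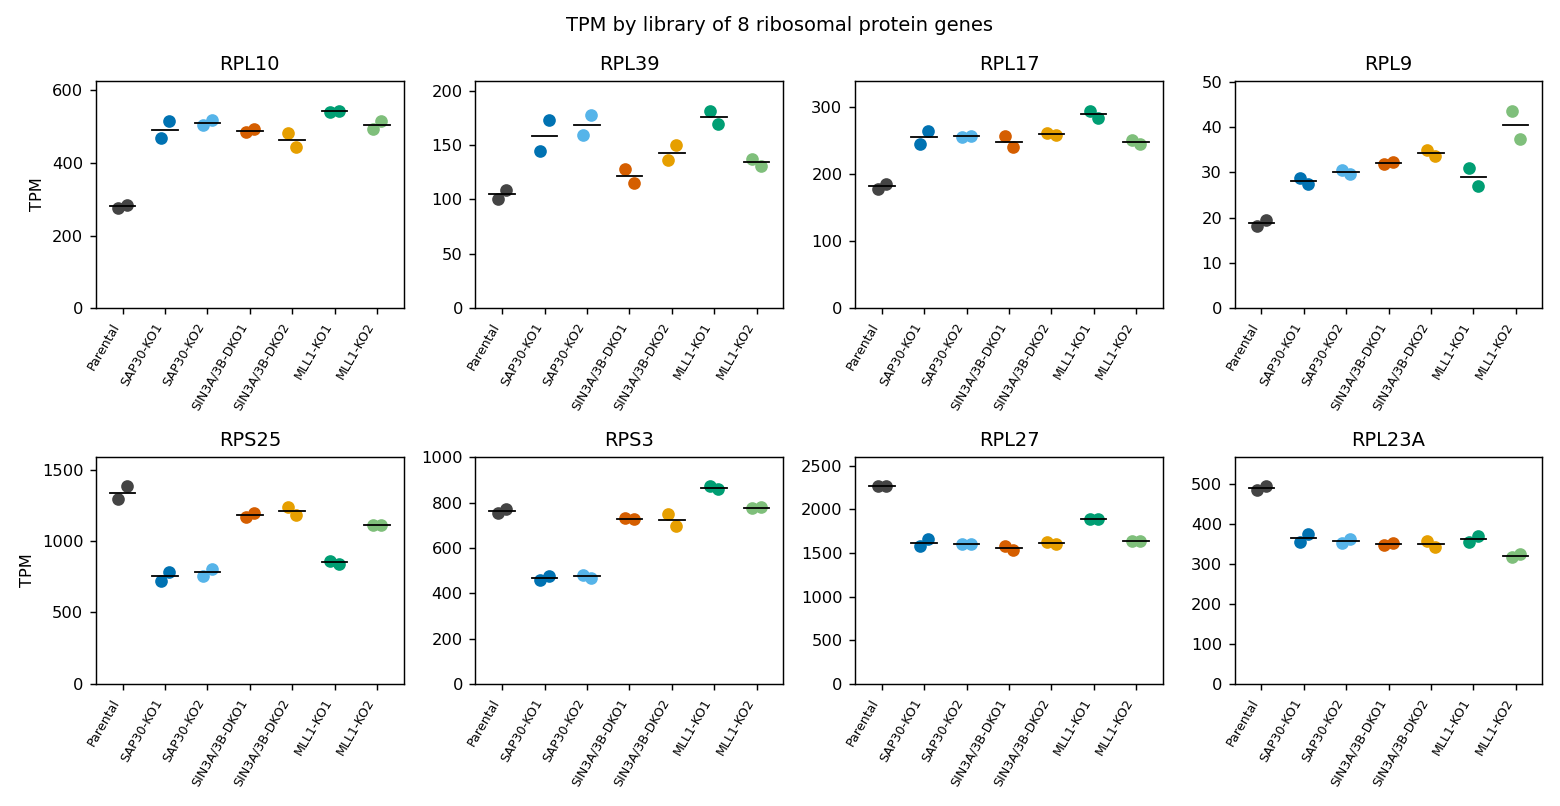
TPM of 8 ribosomal protein genes in all 14 libraries, with 1 point for each library and a line for the group mean. RPL10, RPL39, RPL17, and RPL9 are lowest in the parental libraries, RPL27 and RPL23A are highest there, and RPS25 and RPS3 are lowest in the SAP30 lines.

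RPL9 and RPL17 rose by more than their neighborhoods in all 6 lines, and they have 20 and 50 annotated processed copies. RPL9 (chr4:39454207-39460551), a large subunit protein near the base of the stalk, had 18.2 and 19.6 TPM in parental cells, from 27.5 to 30.5 in the 4 SAP30 libraries, and from 31.8 to 35.0 in the 4 SIN3A/3B libraries. MLL1-KO1 had 31.1 and 27.0 TPM, and MLL1-KO2 had 43.7 and 37.4. All edited libraries lay above the parental ones, with those of MLL1-KO2 highest. Its range over the 7 group means, 1.08 on the log2 scale, was the widest of the 76 genes. The changes were 0.57, 0.66, 0.75, 0.85, 0.60, and 1.08, with SE 0.081 and adjusted p from 6.2e-07 to 0.00017, and the neighborhood moved by 0.35, 0.28, 0.18, 0.30, -0.32, and 0.12. In MLL1-KO1 the value was under 1.5-fold without MLL1-KO1 replicate 1, at 0.50, or without Parental replicate 1, at 0.55. In SAP30-KO1, where RPL9 was just under the limit, it passed without Parental replicate 2, at 0.62, without SAP30-KO1 replicate 2, at 0.60, and with voom, at 0.59. These values rest on 117 to 265 reads per library, and 89.6% of the 50-base stretches of RPL9 occur elsewhere. RPL17 (chr18:47014823-47018878), at the tunnel exit, had 178 and 186 TPM in parental cells and from 240 to 295 in the edited lines, and rose by 0.45 to 0.67, while its neighborhood moved by 0.02 to 0.28. The overlapping RPL17-C18orf32 also rose, by 0.38 to 0.60, and 88.0% of the stretches of RPL17 occur elsewhere.

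On the long arm of chromosome 4, RPL34 and RPS3A rose in MLL1-KO2. RPL34 (chr4:109541725-109551568) had 341 and 376 TPM in parental cells, 506 and 543 in MLL1-KO2, 395 and 409 in MLL1-KO1, and 294 to 328 in the 8 SAP30 and SIN3A/3B libraries. RPS3A (chr4:152020776-152025794) had 59.4 and 62.9 TPM in parental cells, 91.4 and 89.2 in MLL1-KO2, 74.9 and 75.2 in MLL1-KO1, and 49.7 to 60.9 in the SAP30 and SIN3A/3B libraries. In both genes the MLL1-KO2 libraries were the highest. The changes in MLL1-KO2 were 0.55 ± 0.055 and 0.56 ± 0.065, just under 1.5-fold, and the neighborhoods moved by 0.28 and 0.35. Of the stretches of RPS3A, 98.2% occur elsewhere in the genome.

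Differences between genotypes were tested as the mean of 2 lines against the mean of 2 others, in the fit of all 14 libraries. The parental values cancel in these differences. The error is the spread between libraries within a line, not between lines. The MLL1 lines differed from each other in 58 of the 76 genes, with medians from parental cells of 0.23 (MLL1-KO1) and 0.07 (MLL1-KO2). A gene can therefore pass through 1 line. RPS2 passed as higher against the SAP30 lines with 900 and 915 TPM in MLL1-KO2, below all SAP30 libraries. The MLL1 lines exceeded the SAP30 lines at an adjusted p under 0.05 in 55 of the 76 genes (23.9% of all genes) and lay below them in 5 (43.9%). Against the SIN3A/3B lines they were higher in 52 (25.1% of all genes) and lower in 8 (42.7%). The median difference was 0.13 in both. With quantile normalization these counts were 40 higher and 10 lower against the SAP30 lines, and 29 higher and 13 lower against the SIN3A/3B lines. The 8 lower fell to 3 without SIN3A/3B-DKO2 replicate 1, to 4 without MLL1-KO1 replicate 2, MLL1-KO2 replicate 1, or SIN3A/3B-DKO1 replicate 2, and to 5 without SIN3A/3B-DKO1 replicate 1. The SIN3A/3B lines were higher than the SAP30 lines in 18 (22.2%) and lower in 13 (26.4%), with a median of 0.02, and 11 were higher without SIN3A/3B-DKO1 replicate 2.

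Few genes passed 1.5-fold between genotypes. RPS3 did so between the MLL1 and SAP30 lines, being higher by 0.80 ± 0.024 (adjusted p = 3e-10) in the MLL1 lines, against 19.8% of all genes in either direction, and RPL34 was just under the limit at 0.58, so that 1 gene was called. RPS3A did so between the MLL1 and SIN3A/3B lines, by 0.63 ± 0.046 (adjusted p = 3.4e-07), against 19.9%. Between the SIN3A/3B and SAP30 lines RPS3 and RPS25 did so, higher in the SIN3A/3B lines by 0.62 ± 0.024 and 0.64 ± 0.033 (adjusted p = 1.3e-08 and 1.1e-07), against 7.47%.

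At the other end RPL31, near the tunnel exit, had the narrowest range over the 7 group means, 0.15 on the log2 scale. It had 720 and 772 TPM in parental cells and from 661 to 779 in the edited libraries, and it passed the test only in MLL1-KO2, at -0.15 ± 0.05 with adjusted p = 0.023. RPS27 had the third largest mean rise of the SIN3A/3B lines, at 0.67 ± 0.40 and 0.59 ± 0.40, but on 8 to 31 reads per library it did not pass the test (adjusted p = 0.18 and 0.25). Its parental libraries had 4.07 and 5.94 TPM and the SIN3A/3B libraries from 6.33 to 10.4, without overlap. RPL8, the most abundant, ranged from 3435 to 4321 TPM and changed by -0.01 to 0.26.

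Proteins of the ribosome that are encoded under other names did not all follow. FAU on 11q13 encodes RPS30 fused to a ubiquitin-like protein and had 641 and 654 TPM in parental cells, 466 to 519 in the SAP30 lines, 868 to 960 in the SIN3A/3B lines, 803 and 805 in MLL1-KO1, and, for the other MLL1 line, 693 and 730. The SAP30 libraries lay below and the SIN3A/3B libraries above the parental ones, and between these genotypes FAU differed by 0.91 ± 0.024 with adjusted p = 1e-09. Its neighborhood moved by -0.45 and -0.40 in the SAP30 lines and by 0.18 and 0.09 in the SIN3A/3B lines. GNB2L1 (RACK1), a scaffold on the small subunit, had 3093 and 3124 TPM in parental cells and 4276 and 3934 in SIN3A/3B-DKO2, a rise of 0.40 ± 0.034 where its neighborhood rose by 0.36. In SIN3A/3B-DKO1 GNB2L1 rose by only 0.11. The difference of SIN3A/3B-DKO1 minus SIN3A/3B-DKO2, -0.29, passed the limma test at an adjusted p under 0.05.

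Among the paralogs, RPL39L and RPL22L1 changed most. RPL39L, a paralog of RPL39 known from testis and tumor cells, had 74.0 and 68.0 TPM in parental cells, 124 to 130 in the SAP30 lines, 117 to 119 in the SIN3A/3B lines, and 61.1 to 74.4 in the MLL1 lines. The SAP30 and SIN3A/3B libraries lay apart from all others. The changes were 0.83 and 0.84 in the SAP30 lines and 0.71 and 0.74 in the SIN3A/3B lines, each with SE 0.059 and adjusted p from 8.3e-07 to 2.8e-06, while the neighborhood moved by at most 0.07. The MLL1 lines were lower than the SAP30 lines by 0.93 ± 0.042 (adjusted p = 6.6e-09) and lower than the SIN3A/3B lines by 0.82 ± 0.042 (adjusted p = 1.7e-08). RPL22L1, a paralog of RPL22, had 96.5 and 90.5 TPM in parental cells, 52.5 to 62.0 in the SIN3A/3B lines, 60.5 and 56.04 in MLL1-KO1, and 75.6 to 85.2 in the SAP30 lines and MLL1-KO2. It fell by 0.79, 0.71, and 0.68 in SIN3A/3B-DKO1, SIN3A/3B-DKO2, and MLL1-KO1, with SE 0.072. The paralogs RPS27L, RPL26L1, RPL36AL, and RPL7L1 changed by at most 0.29 in any line. RPL10L had no read in any library and RPL3L 1 read in 1 library.

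Other genes of the translation machinery were counted in the same fit. In MLL1-KO1, where the ribosomal protein genes had a median of 0.23, 21.8% of all genes were higher and 38.7% lower. The 76 mitochondrial ribosomal protein genes had a median of 0.05, with 27 higher and 20 lower at an adjusted p under 0.05. The 40 translation factors and other TOP mRNAs had a median of 0.05, with 16 higher and 9 lower. The 61 ribosome biogenesis genes tested had a median of 0.04, with 22 higher and 13 lower, and the 21 mTOR and MYC regulators of translation had a median of 0.18, with 11 higher and 5 lower. In MLL1-KO2 these medians were -0.01, -0.07, -0.16, and 0.31, and 32 of the 61 biogenesis genes were lower and 10 higher, against 36.2% and 28.0% of all genes. In the SAP30 lines the medians of the 4 lists lay between -0.08 and 0.12, and in the SIN3A/3B lines between -0.03 and 0.13. The mitochondrial list in SIN3A/3B-DKO2 had 35 genes higher and 9 lower, against 25.7% and 23.9% of all genes.

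Single genes of these lists are given next. They were picked for large changes within their lists, so their size cannot be compared with that of the ribosomal protein genes. RIOK1, a kinase of late small subunit maturation, fell by 0.51 to 1.0 over the 6 lines, with SE 0.074, and its neighborhood fell by 0.31 to 0.47. UTP14A, a nucleolar processing factor on the X chromosome, rose by 0.41 to 0.85, with SE 0.053, where its neighborhood rose by 0.39 to 0.65. MRPL45 fell by 0.28 to 0.77, where its neighborhood fell by 0.35 to 0.52. MRPS25 rose by 0.28 to 0.74, where its neighborhood rose by 0.19 to 0.30. EIF4A2, an RNA helicase of translation initiation, fell by 0.65 ± 0.035 in SIN3A/3B-DKO1 and by 0.18 to 0.49 in the other lines, while its neighborhood moved between -0.10 and 0.07. VIM, in the list of TOP mRNAs, rose by 0.59 ± 0.027 in MLL1-KO1. In MLL1-KO2 its change of 0.06 did not pass the test (limma adjusted p = 0.081). It changed by 0.27 and 0.31 in the SAP30 lines and by 0.15 and 0.05 in the SIN3A/3B lines. SESN2, an inhibitor of mTOR complex 1, rose by 0.95 ± 0.19 in SIN3A/3B-DKO1 (adjusted p = 0.0017), and MXI1, an antagonist of MYC that binds the SIN3 complex, rose by 0.47 to 0.75 in the 6 lines.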

How the data were processed

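RNA was measured in 14 MDA-MB-231 libraries, 2 for each of 7 groups taken from the labels. The authors made mRNA libraries (KAPA mRNA HyperPrep) and deposited 1 table of values per gene and library, without pooling. The table calls them RPKM, but every library adds up to 1000000, so they were used as deposited TPM. The submitters' processing notes name FastQC 0.11.2, TopHat, featureCounts, and hg19; the handling of reads with several matches is not given in the sources used here. The test had been planned for RPKM and was kept, since it suits both units. Recovered whole reads fitted 18519 of 18519 genes with a value above 0 and gave 18415035 to 23162682 reads per library.

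Values were taken as log2(TPM + 0.5), so that folds of low genes are understated. Genes with at least 1 TPM in at least 2 libraries (13540) were fitted in limma 3.58.1 (R 4.3.3) as 7 group means with a variance trend (7 residual degrees of freedom), with Benjamini-Hochberg adjustment over all genes in each comparison. Genes were called at an adjusted p under 0.05 and 1.5-fold. The fit was tested on simulated data. Named genes were those called in both lines of a genotype, the 3 largest mean rises and falls of each genotype, the 3 highest and lowest parental levels, genes of distal 11q, 16q, and 7p, the narrowest and widest ranges, the fusion genes and paralogs, and 2 genes from each other list; some results on single genes are not reported here. The genes from the other lists were picked for the size of their mean change. RPLP0 to RPLP2, RPL5, RPL11, RPS6, RPS26, RPL34, RPS3A, and RPL38 were added after their values were seen. The members and lists were chosen with earlier results of these data known. Positions are those of GENCODE release 44 on GRCh37, found for 96.5% of the genes tested; sequences are from that genome. Same-numbered libraries did not deviate together (mean correlation 0.01 over 21 pairs), so no replicate block was used.

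Alternatives were pseudocounts of 0.1 and 1, no filter, quantile and median ratio scaling, a total without these genes, only the groups compared, the replicate block, voom on recovered reads, leaving out each library, subtracting 51 neighboring genes, and other fold minima. A fit of only the genes with a position was added after seeing the data. Tables and figures were made in Python 3.11.15 with pandas 2.3.3, numpy 2.4.6, and matplotlib 3.10.9, and Spearman coefficients with scipy 1.17.1.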

Additional observations from a re-analysis of the deposited data

Results flagged for a closer look

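The test of the difference between genotypes picked out RPS3, higher by 0.80 on the log2 scale in the MLL1 than in the SAP30 lines, RPS3A, higher by 0.63 in the MLL1 than in the SIN3A/3B lines, and RPS3 and RPS25, higher by 0.62 and 0.64 in the SIN3A/3B than in the SAP30 lines. RPS3 and RPS25 lie on the long arm of chromosome 11, and their neighborhoods moved by -0.43 and -0.88 in SAP30-KO1. The test between the MLL1 lines picked out 54 ribosomal protein genes higher and 4 lower in MLL1-KO1 than in MLL1-KO2 at a limma adjusted p under 0.05. The 61 ribosome biogenesis genes had a larger median difference there, 0.23 against 0.17, with 44 higher. The groups of 2 libraries are too small for a check of single libraries that stand apart.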

How the results depend on the processing

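Leaving out the fold minimum, the 76 ribosomal protein genes gave 58 higher and 7 lower in MLL1-KO1, 31 and 15 in MLL1-KO2, 21 and 21 for SAP30-KO1, 26 and 19 for its KO2 partner, 20 and 24 for SIN3A/3B-DKO1, and 27 and 17 for its DKO2 partner. Then 60 differed between the MLL1 and SAP30 lines, 60 between the MLL1 and SIN3A/3B lines, 31 between the SIN3A/3B and SAP30 lines, 58 between the MLL1 lines, and 3 between the SIN3A/3B lines. With a fold minimum of 5/4, the calls were 21 higher and 3 lower in MLL1-KO1, 8 and 7 in MLL1-KO2, 6 and 8 for SAP30-KO1, 10 lower for its KO2 partner, 7 and 5 for SIN3A/3B-DKO1, and 7 and 6 for its DKO2 partner.

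Median ratio scaling moved the median to 0.33 in MLL1-KO1, 0.11 in MLL1-KO2, and -0.05 in SAP30-KO1, called 9 and 4 higher and 0 and 0 lower in the MLL1 lines, 1 (RPL13) lower in SIN3A/3B-DKO2, and 3 and 2 between the MLL1 lines and the SAP30 and SIN3A/3B lines. Voom gave medians of 0.29 and 0.11 in the MLL1 lines, 4 higher and 0 lower in MLL1-KO2, 5 higher in SAP30-KO1, and 2 between the MLL1 and SAP30 lines. Quantile normalization gave a median of 0.16 in MLL1-KO1, and it and a total without these genes each called 2 between the MLL1 and SAP30 lines.

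With the neighborhood subtracted, the median was 0.30 in MLL1-KO1, while the SAP30 lines had -0.08 (KO1) and -0.05 (KO2) and the SIN3A/3B lines -0.05 (DKO1) and -0.01 (DKO2). The calls were 3 higher and 0 lower in MLL1-KO1, 1 and 0 in MLL1-KO2, 0 in every other line, 2 between the MLL1 and SAP30 lines, 1 between the MLL1 lines, and 0 between the other genotypes. The direction turned for RPL8 in SAP30-KO2 (-0.24) and SIN3A/3B-DKO1 (-0.18), for RPS4X in both SAP30 lines (-0.15), and in MLL1-KO1 for RPS25 (0.32), RPL19 (0.28), RPL13 (0.17), and RPL27 (0.14). This alternative removes what a gene shares with its neighbors by construction; the cause of the other shifts was not tested.

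Without 1 library at a time, the median ranged from 0.20 to 0.27 in MLL1-KO1, 0.04 to 0.10 in MLL1-KO2, -0.06 to 0.06 and -0.03 to 0.06 in the SAP30 lines KO1 and KO2, and -0.05 to 0.03 and -0.02 to 0.07 in the SIN3A/3B lines DKO1 and DKO2. Calls ranged from 4 to 6 higher and 1 to 1 lower in MLL1-KO1, 2 to 4 and 1 to 1 in MLL1-KO2, 2 to 4 and 2 to 2 for SAP30-KO1, 4 to 4 and 2 to 2 for its KO2 partner, 2 to 2 and 0 to 0 for SIN3A/3B-DKO1, and 2 to 2 and 0 to 1 for its DKO2 partner. Between genotypes they ranged from 1 to 2 for MLL1 against SAP30, 1 to 1 for MLL1 against SIN3A/3B, and 2 to 3 for SIN3A/3B against SAP30, and between lines from 0 to 1 for MLL1, 0 to 0 for SAP30, and 0 to 0 for SIN3A/3B. MLL1-KO2 had 4 higher without MLL1-KO2 replicate 1, where RPL36A reached 0.61, or without Parental replicate 2. RPL36A reached 0.63 in SAP30-KO1 without SAP30-KO1 replicate 1. The lone library of a group was then assumed to vary like the others.

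The replicate block left the 1.5-fold counts in every line as they were (5 higher and 1 lower in MLL1-KO1) and changed no call of a named gene; same-numbered libraries correlated from -0.07 to 0.08. The other alternatives, pseudocounts, no filter, only the groups compared, and genes with a position (chosen after seeing the data), kept each count of 1.5-fold calls within 1.5 times. With no fold minimum, a fit of only the groups compared gave 13 lower in SAP30-KO1, 11 lower and 12 higher in SIN3A/3B-DKO2, and 0 between the SIN3A/3B lines, and no filter gave 5 lower in the MLL1 than in the SIN3A/3B lines and 1 between the SIN3A/3B lines. On that scale median ratio scaling and voom gave 2 and 2 lower for MLL1 against SAP30 and 1 and 3 for MLL1 against SIN3A/3B, and a total without these genes gave 5 for the latter. RPL36A in SAP30-KO1 passed 1.5-fold with the smaller pseudocount, at 0.59. Depth limits RPS27, RPL36A, and RPL21, with under 100 reads in some library.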
